A study of Mus musculus with 14 samples.

Results

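The 8 genes studied have transcription that answers to transforming growth factor beta (TGF-beta) or to the coactivator YAP: Inhba, Tgfbi, Tnc, Thbs1, Postn, Ccn1, Ccn2 and Ankrd1. They were taken by gene symbol, with every probe annotated to them, which gave 17 of the 25697 probes on the array for 8 of its 16593 genes. A probe was tested where its detection p-value, the scanner's test against negative control beads, fell under 0.05 on all arrays of 1 or more groups. By this rule 16 of the 17 probes and 7 of the 8 genes were tested, among 14742 probes and 10004 genes in all. Postn was not tested. A gene with several tested probes is represented by the one with the highest mean, and its other probes are described for some comparisons.

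TGF-beta and activins bind paired serine-threonine kinase receptors that phosphorylate SMAD2 and SMAD3, which then enter the nucleus. YAP and its relative TAZ are held in the cytoplasm by the kinases of the Hippo pathway; on stiff substrates or in spread cells they enter the nucleus and act through TEAD factors. Matricellular proteins are secreted into the extracellular matrix, where they act on cells through integrins and other receptors more than as structural parts, and cultured skin fibroblasts are a rich source of them. Reprogramming of fibroblasts to induced pluripotent stem cells (iPSC) is known to pass through a change from mesenchymal to epithelial character.

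All cells were mouse, and the fibroblasts came from B6CBAF1 mice. Y-SC were fibroblasts of skin from E17.5 embryos (n = 3 arrays, named 1, 16 and 17), and A-SC were fibroblasts of tail tip skin from mice aged 1.5 years (n = 3, named 1, 1.3 and 1.4). Y-iPSC (n = 2, clones 12 and 4) and A-iPSC (n = 2, clones 16 and 19) were made from these cells with retroviral OCT4, SOX2, KLF4 and MYC. A-iPSC-ZSCAN10 (n = 2, clones 3 and 7) received in addition ZSCAN10, a transcription factor with zinc fingers found in ESC, under doxycycline control, with 2 µg/ml doxycycline in the medium. Embryonic stem cells (ESC, n = 2, named D and H) were the reference, and all pluripotent cells grew in medium with serum and leukemia inhibitory factor. Donor age is confounded with developmental stage and body site, and doxycycline with ZSCAN10. Nothing in the labels tells whether a group's arrays stem from separate cultures or mice, and the word clone here stands for an array's code. P-values therefore reflect the spread among these arrays alone, which may be technical.

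Several arrays stood apart. A-SC 1 carried endothelial transcripts that the other 5 fibroblast arrays lacked or held at low levels: Pecam1 had a normalized signal of 2242 there, and Emcn of 14069. The 6 endothelial markers with a probe summed to 27534 on A-SC 1 and to 380.0 to 470.5 on the other fibroblast arrays. Macrophage markers summed to 948 to 4661 on the Y-SC arrays, highest on Y-SC 17, and to 371 to 487 on the A-SC arrays. Keratinocyte markers summed to 1838 on Y-SC 1, with 8 of 10 detected, and to 235 to 269 on the other fibroblast arrays. The iPSC detected only part of the 10 pluripotency markers. These summed to 7735 and 8930 in Y-iPSC (clones 12 and 4) and to 5636 and 5039 in A-iPSC (16 and 19). The sums were 3632 and 8700 on A-iPSC-ZSCAN10 clones 3 and 7, and 38342 and 36631 in ESC (D and H). Clone 3 thus lay under both A-iPSC arrays. Nanog was above background on both Y-iPSC arrays at 81.0 and 97.0 and on neither A-iPSC array. It was above background on both A-iPSC-ZSCAN10 arrays at 34.2 and 121, and at 4437 and 4298 in ESC. Zscan10 itself was 36.1 and 22.3 on the A-iPSC arrays, the latter not above background. On the A-iPSC-ZSCAN10 arrays it was 249.8 and 417, higher by 3.51 ± 0.38 log2 units (adjusted p = 0.000225). Median intensity per array was 110.656 to 147.6, 47.57% to 52.33% of probes were detected, and the number of arrays limits the precision. For arrays 16 and 17 of Y-SC, and arrays 1.3 and 1.4 of A-SC, signals were exported with 1 decimal and a higher maximum (30939 to 34281) than those of the other 10 arrays (10892 to 17683). This second export format occurred in fibroblasts only, so each comparison with fibroblasts was also made without it. In those fits Y-SC 1 and A-SC 1 alone stand for their groups. The fits therefore cannot separate the export format from traits of these arrays.

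The bases upstream of the start site are shown for Ccn1 and Ankrd1, both textbook YAP targets, because these are the members whose windows hold the core letters of the TEAD motif. Sequences are from RefSeq on build GRCm38.p6, where 6 of the 8 genes (Inhba, Tgfbi, Tnc, Postn, Ccn1 and Ankrd1) had entries, and are read 5′ to 3′ on the gene's strand. Each run is the 250 bases before the start site, with GGAATG or its reverse complement in capitals. Ccn1 lies at chr3:145649986-145650235 and Ankrd1 at chr19:36119845-36120094, both on the minus strand.
Ccn1: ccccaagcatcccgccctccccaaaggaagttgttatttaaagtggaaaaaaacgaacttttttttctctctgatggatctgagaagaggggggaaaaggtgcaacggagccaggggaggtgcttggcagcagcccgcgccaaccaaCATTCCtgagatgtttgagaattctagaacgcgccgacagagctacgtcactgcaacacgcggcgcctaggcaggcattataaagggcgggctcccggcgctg
Ankrd1: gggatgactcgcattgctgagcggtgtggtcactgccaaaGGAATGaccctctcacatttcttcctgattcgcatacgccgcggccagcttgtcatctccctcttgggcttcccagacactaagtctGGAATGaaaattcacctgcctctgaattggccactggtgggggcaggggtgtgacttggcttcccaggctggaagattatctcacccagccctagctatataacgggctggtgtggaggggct
Ccn1 held 1 match, 103 to 98 bases before the start site. Ankrd1 held 2, at 210 to 205 and at 123 to 118 bases before it. The windows of Inhba, Tgfbi, Tnc and Postn held none. Over all 32851 promoter windows of this length, 12.6% held the letters on either strand. The AP-1 motif TGANTCA, present in 6.75% of all windows, and the SMAD palindrome GTCTAGAC, present in 0.167%, were found in no member's window. A match is a description of letters and was not tested for binding.

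Inhba encodes the beta A subunit, which pairs to form activin A, the 1 secreted ligand of the TGF-beta family among these genes. Its normalized signal was 5377, 7257 and 7105 on the Y-SC arrays and 4738, 8401 and 6395 on the A-SC arrays. It was 323 and 110.1 in Y-iPSC (clones 12 and 4), 265 and 218 in A-iPSC (16 and 19), 680.5 and 1266 on the A-iPSC-ZSCAN10 arrays (clones 3 and 7), and 2281 and 1635 in ESC (D and H). From high to low the means ran Y-SC, A-SC, ESC, A-iPSC-ZSCAN10, A-iPSC and Y-iPSC; only the fibroblast pair and the last pair overlapped with their neighbour.

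Tgfbi encodes a secreted protein induced by TGF-beta that binds collagen and integrins. Its signals were 1272, 1334 and 122 in Y-SC, and 448, 1227 and 418 in A-SC. In the pluripotent cells they were 297 and 67.8 in Y-iPSC, 36.3 and 80.0 in A-iPSC, 5062 and 450.2 on the A-iPSC-ZSCAN10 arrays, and 346 and 257 in ESC. Tgfbi was the member with the widest spread within groups, and each group overlapped with its neighbour in the order of means. The low fibroblast array was Y-SC 17, which also held the most macrophage transcripts. Its fibroblast markers summed to 27550, the lowest among the fibroblast arrays. Its share of detected probes, 47.57%, was the lowest of all 14 arrays. The part of these traits in the Tgfbi value was not tested. The highest Tgfbi signal of all 14 arrays was that of A-iPSC-ZSCAN10 clone 3.

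Tnc encodes tenascin C, a large matrix glycoprotein of embryonic and wounded tissue. Its signals were 6833, 9050 and 6001 in Y-SC and 5369, 8221 and 4881 in A-SC. They were 173 and 98.8 in Y-iPSC, 66.3 and 56.9 in A-iPSC, 146 and 428 on the A-iPSC-ZSCAN10 arrays, and 589.9 and 668 in ESC. Fibroblasts, ESC and A-iPSC each stood clear of the next group in the order, whereas A-iPSC-ZSCAN10 and Y-iPSC overlapped. Of its 6 probes, ILMN_2463180 and ILMN_2463181 gave these high signals. The other 4 were dimmer, with signals of at most 840 in fibroblasts, and none of them was above background on any of the 6 iPSC arrays.

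Thbs1 encodes thrombospondin 1, a glycoprotein that activates latent TGF-beta and binds the receptor CD47. It varied widely among fibroblasts, with 1208, 5095 and 756 in Y-SC and 1346, 3734 and 5711 in A-SC. It was 118 and 57.8 in Y-iPSC, 48.5 and 59.6 in A-iPSC, 72.0 and 144 on the A-iPSC-ZSCAN10 arrays, and 209.8 and 245 in ESC. ESC lay between the fibroblasts and all iPSC without overlap, and Y-iPSC overlapped with both other iPSC groups, while both A-iPSC arrays lay under both A-iPSC-ZSCAN10 arrays. Postn encodes periostin, another TGF-beta induced matrix protein. Its only probe reached 37.9 on Y-SC 16, the 1 array where it was above background, and 20.2 to 29.6 on the other 13. Nothing can be said of differences in Postn from these arrays.

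Ccn1 and Ccn2 encode cysteine-rich secreted proteins that bind integrins and are widely used as readouts of YAP. Ccn1 signals were 2938, 3505 and 3978 in Y-SC and 3830, 3286 and 2363 in A-SC. They were 1548 and 1852 in Y-iPSC, 3111 and 3601 in A-iPSC, 590.4 and 665 on the A-iPSC-ZSCAN10 arrays, and 686 and 558 in ESC. Distinct levels were thus seen: both fibroblast groups and A-iPSC overlapped at the top, Y-iPSC stood alone below them, and A-iPSC-ZSCAN10 and ESC overlapped at the bottom. Ccn2 signals were 12421, 19384 and 18119 in Y-SC and 13774, 17442 and 13774 in A-SC. They were 7767 and 5443 in Y-iPSC, 5827 and 10076 in A-iPSC, 2794 and 5473 on the A-iPSC-ZSCAN10 arrays, and 5383 and 6879 in ESC, where all pluripotent groups overlapped with their neighbour and lay under the fibroblasts.

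Ankrd1 encodes an ankyrin repeat protein of the nucleus and the sarcomere. Its signals were 2266, 3567 and 6211 in Y-SC and 4644, 2332 and 2001 in A-SC. They were 87.9 and 57.6 in Y-iPSC, 196 and 631 in A-iPSC, 57.7 and 633 on the A-iPSC-ZSCAN10 arrays, and 202 and 186 in ESC. Fibroblasts stood clear of all pluripotent cells, and the 2 clones of A-iPSC-ZSCAN10 lay near opposite ends of the pluripotent range. Its dimmer probe ranked A-iPSC-ZSCAN10 clone 3, where it was below background, and clone 7, at 176, in the same order.

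**Figure D1:**
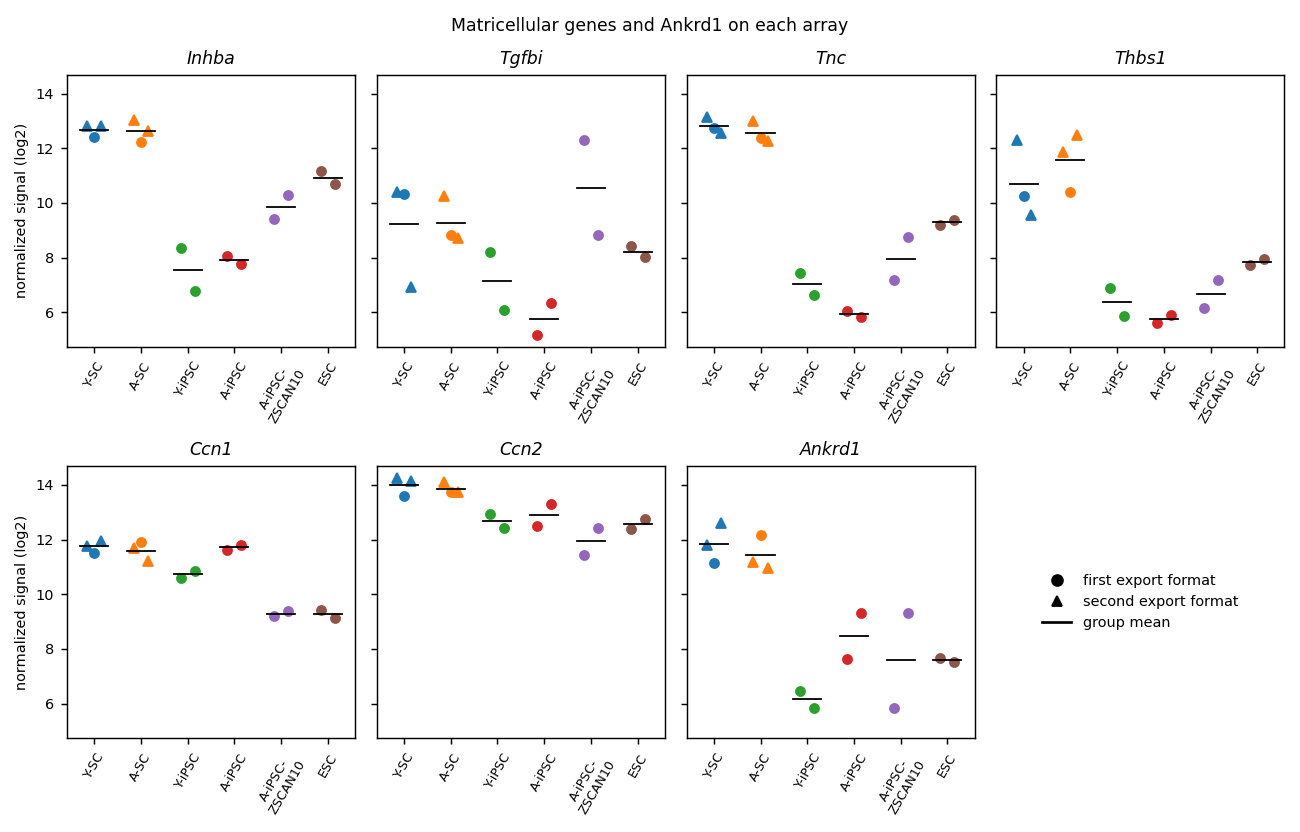
Normalized signal (log2, vertical axis) of the 7 tested genes on each of the 14 arrays, by group; symbols give the export format and bars the group mean. Inhba, Tnc, Thbs1 and Ankrd1 are high on all 6 fibroblast arrays, while A-iPSC carry Ccn1 at the fibroblast level and Tgfbi spreads widely within groups.

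The first comparison asked whether fibroblasts of aged and young donors differed. No member passed: the count was 0 of 7 in A-SC against Y-SC by limma, 0 of 7 had an unadjusted p under 0.05, and 0.480% of all tested genes passed in either direction. The largest difference was that of Thbs1, at 0.87 ± 0.67 log2 units higher in A-SC (adjusted p = 0.713). For Ccn1 the 95% interval of the difference ran from -0.64 to 0.33, so that a change larger than these bounds lay outside it. For Tgfbi it ran from -2.22 to 2.32, which leaves the comparison with little precision. Without A-SC 1, the array with endothelial transcripts, the count was also 0, and the Thbs1 difference was 1.47 (adjusted p = 0.448). The count was 0 as well with the 2 arrays of the first export format and with the 4 arrays of the second. The median difference was -0.13 over the 7 members and -0.04 over all genes.

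Reprogrammed cells were compared with the fibroblasts they came from. In Y-iPSC, 6 of the 7 members fell against Y-SC, where 12.5% of all tested genes fell. The median was -4.34 log2 units over the members and 0.01 over all genes. Tnc fell by 5.78 ± 0.42 log2 units (adjusted p = 3.22e-06), which was 54.9-fold. Over 16 alternative fits the Tnc difference lay between -6.18 and -3.64. Inhba fell by 5.11 ± 0.43 (adjusted p = 1.12e-05) and Ankrd1 fell by 5.70 ± 0.84 (adjusted p = 0.000592). Thbs1 fell by 4.34 ± 0.75 (adjusted p = 0.00168). The size for Inhba depended on the array, at -4.34 without Y-iPSC 4 and -5.89 without Y-iPSC 12. Thbs1 was -3.53 without Y-SC 16 and passed. The CCN genes fell far less: Ccn1 fell by 1.03 ± 0.25 (adjusted p = 0.0117) and Ccn2 fell by 1.33 ± 0.35 (adjusted p = 0.0171). Of the other Ccn1 probes, ILMN_1235571 gave -1.15 (adjusted p = 0.0137) and passed, while ILMN_2710253 gave -0.68 (adjusted p = 0.0770) and did not. Tgfbi differed by -2.06 ± 1.16 and did not pass (adjusted p = 0.228); without Y-SC 17 it was -3.20 and passed (adjusted p = 0.0476). With the first export format alone, Ccn1 (-0.80, adjusted p = 0.101) and Ccn2 (-0.93, adjusted p = 0.274) no longer passed, and with the format as a block Ccn2 did not (-1.07, adjusted p = 0.0903). Leaving out Y-iPSC 12 ended the call of Ccn1, and leaving out Y-SC 16 or Y-iPSC 4 that of Ccn2. Both were lost with only the groups compared in the fit, and Ccn2 also with cyclic loess and with array weights.

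In A-iPSC, 5 of the 7 members fell against A-SC, beside 15.5% of all genes, with medians of -3.51 and 0.04. Tnc fell by 6.61 ± 0.42 (adjusted p = 1.01e-06), a 97.6-fold difference and the largest of any member in any comparison of the reported fit. Its size depended on the processing, at -6.77 to -4.10 over 16 alternative fits. Thbs1 fell by 5.83 ± 0.75 (adjusted p = 0.000162) and Inhba fell by 4.72 ± 0.43 (adjusted p = 1.43e-05). Tgfbi fell by 3.51 ± 1.16 (adjusted p = 0.0367) and Ankrd1 fell by 2.99 ± 0.84 (adjusted p = 0.0178). The second Tgfbi probe was above background on neither A-iPSC array and was at least 2.90-fold lower there than in A-SC. That probe did not pass (adjusted p = 0.0978). Ccn1 differed by 0.11 ± 0.25 (adjusted p = 0.772), with a 95% interval from -0.43 to 0.65. Ccn2 differed by -0.96 ± 0.35 and missed the threshold (adjusted p = 0.0531). Without A-SC 1 the same 5 passed, with Thbs1 at -6.42. With the format as a block or the first format alone, only Tnc, Thbs1 and Inhba passed; Tgfbi had adjusted p = 0.0722 and 0.150 there, and Ankrd1 0.0568 and 0.0706. Tgfbi was also lost without A-SC 1.3, A-SC 1.4 or either A-iPSC array (-4.08 to -2.94), and Ankrd1 without A-iPSC 16 (-2.14); without A-iPSC 19 Ankrd1 was -3.83 and passed. Tgfbi was lost as well with the normexp background, with the authors' value table, with no filter on dim probes and with its probes averaged.

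In A-iPSC-ZSCAN10, 6 of the 7 members fell against the same 3 A-SC arrays, beside 10.0% of all genes, with medians of -2.77 and 0.05. Thbs1 fell by 4.91 ± 0.75 (adjusted p = 0.00120), Tnc fell by 4.59 ± 0.42 (adjusted p = 3.26e-05) and Ankrd1 fell by 3.87 ± 0.84 (adjusted p = 0.00813). Inhba fell by 2.77 ± 0.43 (adjusted p = 0.00134), Ccn1 fell by 2.31 ± 0.25 (adjusted p = 0.000111) and Ccn2 fell by 1.93 ± 0.35 (adjusted p = 0.00302). Tgfbi was 2.46-fold higher in the mean, with a 95% interval of its log2 difference from -1.23 to 3.84, and did not pass (adjusted p = 0.463). The same 6 passed without A-SC 1, with Thbs1 at -5.50. Ankrd1 was lost with only the groups compared in the fit and without clone 3 (-2.14, adjusted p = 0.0815), and was -5.59 without clone 7, whereas Tnc was -3.81 and -5.36 without them and passed in both.

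ESC were compared with both fibroblast groups. Again 6 of the 7 members were lower, beside 20.8% of all genes, with medians of -2.40 and 0.00. Ankrd1 was lower by a log2 difference of -4.05 ± 0.75 (adjusted p = 0.00139), Tnc by -3.39 ± 0.38 (adjusted p = 4.79e-05) and Thbs1 by -3.32 ± 0.67 (adjusted p = 0.00238). Ccn1 differed by -2.40 ± 0.22 (adjusted p = 1.26e-05), Inhba by -1.74 ± 0.39 (adjusted p = 0.00410) and Ccn2 by -1.36 ± 0.31 (adjusted p = 0.00478). Tgfbi differed by -1.01 ± 1.04 and did not pass (adjusted p = 0.468). The 6 calls held without A-SC 1; with the first export format alone Ccn2 (adjusted p = 0.0673) and Inhba (adjusted p = 0.0720) missed the threshold. Ccn2 also missed it without ESC D, and Inhba without ESC H.

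**Figure D2:**
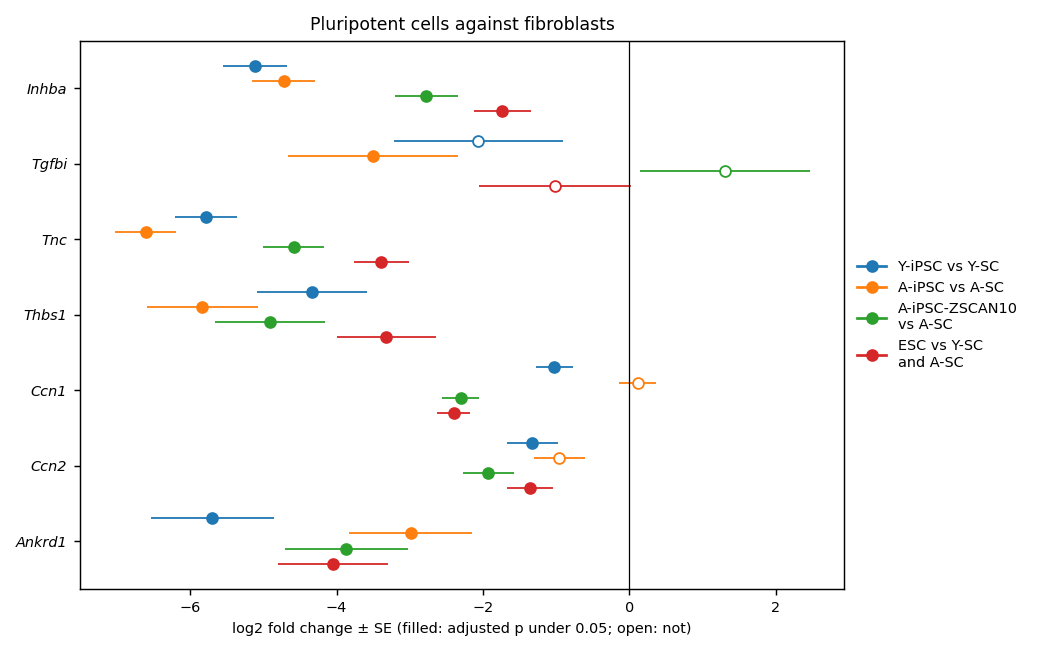
Log2 fold change ± SE (horizontal axis) of each gene in 3 iPSC groups against their own fibroblasts and in ESC against both fibroblast groups; filled points passed an adjusted p of 0.05. Tnc, Thbs1, Inhba and Ankrd1 lie at -1.74 or below in all 4 comparisons, whereas Ccn1 lies at 0.11 in A-iPSC and Tgfbi lies above 0 in A-iPSC-ZSCAN10.

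The drop against fibroblasts went along with lower summed signals of fibroblast and smooth muscle markers. The 10 fibroblast markers with a probe summed to 27550 to 54673 on the Y-SC and A-SC arrays, 4403 to 5969 in Y-iPSC, 4724 to 5126 in A-iPSC, 9902 to 10012 on the A-iPSC-ZSCAN10 arrays and 7586 to 9199 in ESC. The 8 smooth muscle markers summed to 22315 to 30798 in fibroblasts, 2114 to 4326 in Y-iPSC and A-iPSC, 6166 to 7314 on the A-iPSC-ZSCAN10 arrays and 12644 to 12820 in ESC. Of these markers, 6 were above background on all Y-SC arrays, 5 on all A-SC, 4 on all Y-iPSC and 3 on all A-iPSC arrays. The count was 5 in A-iPSC-ZSCAN10 and 5 in ESC. Myh11, Cnn1 and Lmod1 were above background on no pluripotent array, and Cnn1 on no Y-SC array. Acta2 and Tagln also belong to the TGF-beta induced genes read below. Of the 10 fibroblast markers, 6 were above background on all Y-iPSC arrays, 4 on all A-iPSC arrays and 9 on all A-iPSC-ZSCAN10 arrays. ESC had 9 above background on all arrays. Lum was below background on all iPSC arrays and was the only such marker in A-iPSC-ZSCAN10. In such bulk RNA, fewer cells of a type and less RNA per cell cannot be told apart. The part of these cell types in the members' values was not tested.

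Other genes of the 2 pathways were read from lists chosen with earlier results of these data known. Over all genes, 12.5% fell and 12.1% rose in Y-iPSC against Y-SC, and 15.5% fell and 17.9% rose in A-iPSC against A-SC. Of 16 tested TGF-beta induced genes outside the members, 11 fell and 3 rose in Y-iPSC against Y-SC, and 11 fell and 2 rose in A-iPSC against A-SC. Tagln, an actin-binding protein of smooth muscle, fell by 6.07 ± 0.45 in Y-iPSC (adjusted p = 3.59e-06). In A-iPSC it was above background on neither array and was at least 68.6-fold lower than in A-SC (adjusted p = 1.68e-06). Of 16 tested YAP and TAZ target genes outside the members, 8 fell and 3 rose in Y-iPSC and 6 fell and 3 rose in A-iPSC. Among those that rose was Nt5e, the surface enzyme CD73, at 4.02 ± 0.59 (adjusted p = 0.000542; above background on 2 of the 3 Y-SC arrays) and 5.84 ± 0.59 (adjusted p = 2.66e-05). Of 16 tested genes of the Hippo core and its TEAD partners, 4 fell in each of these comparisons, while 1 and 2 rose. The shares of TGF-beta induced and YAP target genes that rose were thus near those over all genes. Yap1, named here after its values were seen, passed in none of the 12 comparisons; its differences ran from -0.49 to 0.59.

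Among the iPSC, those from aged donors were first set against those from young donors. Of the 7 members, 1 rose, Ccn1, by 0.98 ± 0.27 log2 units (adjusted p = 0.0409), or 1.98-fold, while 6.12% of all genes rose. No member fell. Ankrd1 was higher on both A-iPSC arrays at 2.30 ± 0.92 (adjusted p = 0.137), and Tnc lower on both at -1.09 ± 0.46 (adjusted p = 0.159); neither passed. The Ccn1 call rested on a narrow margin: the other 2 Ccn1 probes gave 1.03 (adjusted p = 0.0599) and 0.69 (adjusted p = 0.143), and the call was lost when any 1 of the 4 arrays was left out, with the difference between 0.85 and 1.11. Median differences were 0.24 for the members and -0.01 for all genes.

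Whether the change from fibroblast to iPSC differed between donors was tested as the difference of both changes. No member passed by limma, beside 3.99% of all genes in either direction, although 2 of 7 had an unadjusted p under 0.05. These were Ccn1, whose change was 1.14 ± 0.35 log2 units higher for aged donors (adjusted p = 0.102), and Ankrd1, at 2.71 ± 1.19 (adjusted p = 0.248). Without A-SC 1 the Ccn1 value was 1.29 (adjusted p = 0.0509).

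The addition of ZSCAN10 was examined in A-iPSC-ZSCAN10 against A-iPSC, the same 2 A-iPSC arrays as above. Of the members, 3 rose, beside 7.78% of all genes, and 1 fell, beside 8.38%. Ccn1 fell by 2.42 ± 0.27 log2 units (adjusted p = 0.000267), which was 5.34-fold. Inhba rose by 1.95 ± 0.47 (adjusted p = 0.0176), or 3.86-fold, and Tnc by 2.02 ± 0.46 (adjusted p = 0.0132), or 4.06-fold. Tgfbi rose by 4.81 ± 1.27 (adjusted p = 0.0253), or 28.0-fold. Ccn2 was lower on both arrays at -0.97 ± 0.38 (adjusted p = 0.108), and Thbs1 (0.92 ± 0.82, adjusted p = 0.504) and Ankrd1 (-0.88 ± 0.92, adjusted p = 0.579) did not pass. Median differences were 0.92 over the members and 0.03 over all genes, with members on both sides of 0.

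These 4 calls were not equally firm. All 3 Ccn1 probes fell, by 2.42 to 2.74 log2 units with adjusted p of 0.000236 to 0.000297, and Ccn1 passed in each of the 14 alternative fits, at -2.57 to -2.15. The Tgfbi value rested on clone 3: without it the difference was 3.06 (adjusted p = 0.199), without clone 7 it was 6.55 (adjusted p = 0.0194), and the call was also lost without either A-iPSC array. It was also lost from the authors' value table and with no filter on dim probes. Its second probe was not above background on either A-iPSC array, which gives only a bound: A-iPSC-ZSCAN10 exceeded A-iPSC at least 6.53-fold on it (adjusted p = 0.0491). Such bounds set the mean of the brighter group against, per array, the lowest signal above background or the dim probe's own signal, whichever was higher. Inhba was lost without clone 7 (1.50, adjusted p = 0.161) and without either A-iPSC array, and Tnc without clone 7 (1.25, adjusted p = 0.129; 2.80 without clone 3) and without A-iPSC 19 (1.91, adjusted p = 0.105). For Tnc, both bright probes rose and the 4 dim ones, which were below background in both groups, did not pass.

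**Figure D3:**
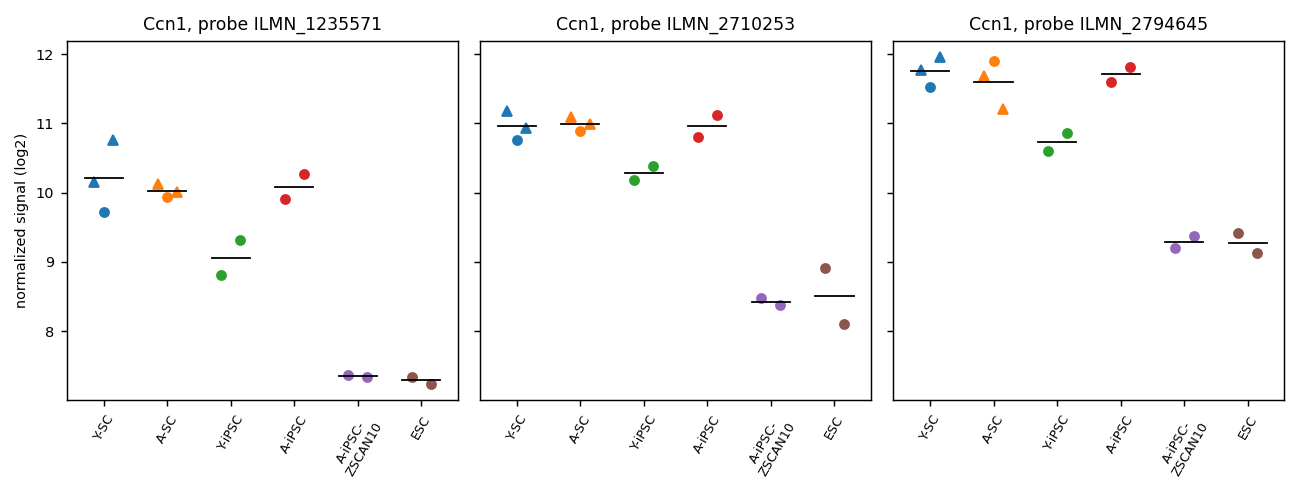
Normalized signal (log2, vertical axis) of the 3 Ccn1 probes on the 14 arrays by group; triangles mark the second export format and bars the group mean. On each probe A-iPSC lie with the fibroblasts, Y-iPSC lower, and A-iPSC-ZSCAN10 and ESC lowest.

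Markers of other cells moved in the same comparison. The summed fibroblast markers were 4724 to 5126 in A-iPSC and 9902 to 10012 in A-iPSC-ZSCAN10, with 5 and 9 of 10 detected on each array. The keratinocyte markers summed to 301 to 312 in A-iPSC, 7119 to 10921 on the A-iPSC-ZSCAN10 arrays and 10661 to 12152 in Y-iPSC. Krt14, a keratin of basal epidermis, had signals of 3993 and 4843 on the A-iPSC-ZSCAN10 arrays and none above background on the A-iPSC arrays, while Krt5 and Trp63, which define these cells, were not above background on any pluripotent array. The part of these cells in the rise of Inhba, Tnc and Tgfbi was not tested.

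Related genes were read from the lists in the same comparison, in which 7.78% of all genes rose and 8.38% fell. Of 16 tested TGF-beta induced genes outside the members, 4 rose and 3 fell. Of 12 tested genes for TGF-beta ligands, latency and receptors, 1 rose and 1 fell. Of 12 tested SMADs and their regulators, none rose and 2 fell. Of 10 tested genes of other matricellular families, 4 rose and none fell in A-iPSC-ZSCAN10 against A-iPSC: Ccn4, a CCN family protein, by 3.09 ± 0.50 (adjusted p = 0.00240), Sparc by 2.53 ± 0.42 (adjusted p = 0.00262), Igfbp7 by 2.21 ± 0.22 (adjusted p = 0.000104) and Thbs2, the nearest relative of Thbs1, by 1.55 ± 0.42 (adjusted p = 0.0294). Of 7 tested genes of the activin and inhibin system, 2 rose and 1 fell. Fst encodes follistatin, which binds and neutralises activin. Its signals were 40.1 and 25.3 on the A-iPSC arrays and 561 and 530.1 with ZSCAN10, where it rose by 4.10 ± 0.58 (adjusted p = 0.00104); the lower A-iPSC signal was not above background. Inhbb, the beta B subunit, was above background on neither A-iPSC array and was at least 5.11-fold higher with ZSCAN10 (adjusted p = 0.00757), and Acvr2b, an activin receptor, fell by 1.37 ± 0.40 (adjusted p = 0.0376). Among 16 YAP and TAZ target genes outside the members, 1 rose (Rbms3, an RNA-binding protein, by 3.31 ± 0.31, adjusted p = 8.03e-05, above background on 1 of the 2 A-iPSC arrays) and 1 fell (Nt5e, which fell by 2.46 ± 0.64, adjusted p = 0.0240). These YAP target counts lie no higher than the shares over all genes.

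A-iPSC-ZSCAN10 were also set against Y-iPSC. Inhba was the only member that rose, by 2.30 ± 0.47 (adjusted p = 0.0380), beside 0.670% of all genes, and Ccn1 the only one that fell, by 1.43 ± 0.27 (adjusted p = 0.0275), beside 0.780%. Tgfbi was higher on both A-iPSC-ZSCAN10 arrays at 3.41 ± 1.27 but did not pass (adjusted p = 0.252). Without Y-iPSC 12 Inhba was 3.07 and passed. Both calls were lost without Y-iPSC 4, without clone 3 and without clone 7, and when the fit was limited to these 2 groups 0 of the tested probes passed.

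**Figure D4:**
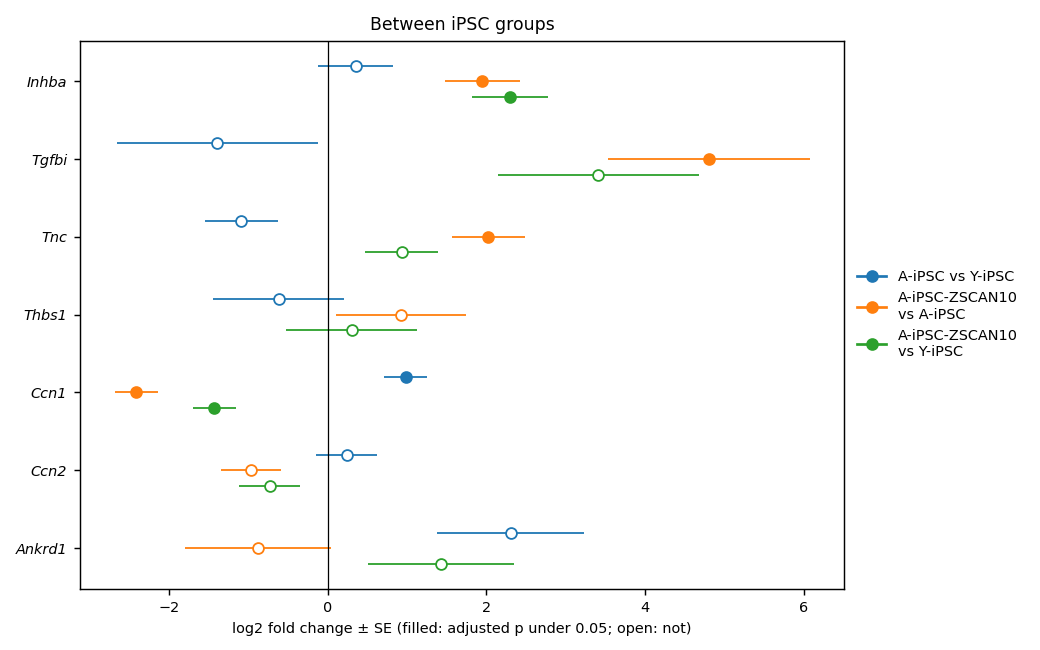
Log2 fold change ± SE (horizontal axis) of each gene between iPSC groups; filled points passed an adjusted p of 0.05. Ccn1 lies at 0.98 in A-iPSC against Y-iPSC and below 0 in A-iPSC-ZSCAN10 against either, while Inhba lies above 0 in A-iPSC-ZSCAN10 against either.

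Each iPSC group was last compared with ESC; these comparisons share the 2 ESC arrays. In Y-iPSC, Ccn1 was higher by 1.45 ± 0.27 (adjusted p = 0.00448), beside 7.49% of all genes, and Inhba (-3.36 ± 0.47, adjusted p = 0.000722) and Tnc (-2.26 ± 0.46, adjusted p = 0.00729) were lower, beside 7.53%. Without ESC H, Ccn1 (adjusted p = 0.0554) and Tnc (adjusted p = 0.0666) missed the threshold. Tnc also missed it without Y-iPSC 4 (-1.86, adjusted p = 0.0629) and with its probes averaged (-1.04, adjusted p = 0.167). Inhba was -2.58 without Y-iPSC 4 and -4.13 without Y-iPSC 12, and passed in both. In A-iPSC, Ccn1 was higher by 2.44 ± 0.27 (adjusted p = 7.36e-05), beside 17.3% of all genes. Inhba (-3.01 ± 0.47, adjusted p = 0.000682) and Tnc (-3.35 ± 0.46, adjusted p = 0.000288) were lower, beside 18.1%. These 3 calls held whichever of the 4 arrays was left out.

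In A-iPSC-ZSCAN10, none of the 7 members passed against ESC by limma, beside 13.2% of all genes in either direction, and 2 of 7, Inhba and Tnc, had an unadjusted p under 0.05. Ccn1 differed by 0.02 ± 0.27 log2 units, with a 95% interval from -0.58 to 0.61. Inhba differed by -1.06 ± 0.47 (adjusted p = 0.179) and Tnc by -1.33 ± 0.46 (adjusted p = 0.0857), and both were lower on both arrays. With array weights in the fit, both passed. Without clone 7, Tnc passed at -2.11 (adjusted p = 0.0142).

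The activin system around Inhba was read in the same way. Against ESC, 4 of its 7 tested genes fell in Y-iPSC, 4 fell with A-iPSC, and 3 fell with A-iPSC-ZSCAN10; none rose in these comparisons. Over all genes, 7.53% fell and 7.49% rose in Y-iPSC, 18.1% fell and 17.3% rose in A-iPSC, and 6.47% fell and 6.76% rose in A-iPSC-ZSCAN10. Nodal, a ligand of the same receptors, had signals of 611 and 416 in ESC and was not above background on either A-iPSC array, where it was at least 14.7-fold lower (adjusted p = 0.000214). It was lower by -2.83 ± 0.56 in Y-iPSC (adjusted p = 0.00621) and by -2.77 ± 0.56 in A-iPSC-ZSCAN10 (adjusted p = 0.00747). Fst was lower in Y-iPSC (-3.24 ± 0.58, adjusted p = 0.00334) and A-iPSC (-3.27 ± 0.58, adjusted p = 0.00135), and was above background on 1 of the 2 arrays in each.

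The genes whose values followed each member most closely were found by Pearson correlation of log2 values over the 14 arrays, as a description; these arrays differ above all between fibroblasts and pluripotent cells, which any gene with that difference shares. Inhba was nearest to Acta2 (r = 0.985), Actn1 (0.979) and Ccn4 (0.978), and Tnc to Tagln (0.980), Vegfc (0.979) and Ccn4 (0.976). Thbs1 was nearest to Dbn1 (0.977), Svep1 (0.977) and Galnt18 (0.973), and Ankrd1 to Gpr176 (0.950), 4930402H24Rik (0.945) and Fez2 (0.942). Ccn2 was nearest to Lurap1l (0.944), Amotl2 (0.928) and Lims2 (0.917). Ccn1, with its high level in A-iPSC, was nearest to Lbh (0.944), Rhob (0.943) and Adm (0.943). Tgfbi had the lowest of these values, with Cd248 (0.867), Mapre2 (0.842) and Endod1 (0.836).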

How the data were processed

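Total RNA of 14 mouse samples was measured on Illumina MouseRef-8 v2.0 bead arrays. Per the file headers, the deposited table gives a non-normalized bead intensity and a detection p-value per probe and array; whether background had been subtracted is not given in the sources used here. The authors' deposited value table holds intensity with the ranks of the non-normalized columns and 1 common distribution, and served as an alternative only. Per the submitters' processing notes, lumi was used; its version is not given in the sources used here.

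From the non-normalized intensity, limma 3.58.1 in R 4.3.3 (neqc: negative controls inferred from detection p-values, offset 16, quantile normalization, log2) gave the values; printed signals are these on a linear scale. A mean per group was fitted over all 14 arrays (8 residual and 3.633 prior degrees of freedom, empirical Bayes), and 12 contrasts were tested with Benjamini-Hochberg adjustment over 14742 probes, at 0.05. Symbols came from the platform annotation, updated by gene ID for 23962 of 23978 probes with a symbol. Likeness genes were the 3 with the highest correlation to a member; up to 4 passing genes per pathway list and comparison, those of largest change, could be named, and not all are. The steps were tested on simulated data. Alternatives covered background, normalization, dim-probe filter, array weights, averaging of probes, a fit of only the compared groups, export format as a block and each array left out; fits within 1 export format were chosen after seeing the data. The members and lists were chosen with earlier results of these data known.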

Additional observations from a re-analysis of the deposited data

How the results depend on the processing

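No member's call turned direction. Of 1330 alternative values of members, 64 lost a call, 12 gained one and 1254 kept their side of the threshold; 45 of these changed sign while neither passed. For the 7 members, the count past the threshold in A-iPSC against A-SC was 3 with the export format as a block and 3 with the first format only, and 3 to 5 with an array left out. In A-iPSC against Y-iPSC it was 0 under median scaling, 0 with array weights, 0 with only the groups compared, and 0 with any array left out. In A-iPSC-ZSCAN10 against Y-iPSC it was 1 from the authors' value table, 1 with cyclic loess, 1 with no filter on dim probes, 0 under median scaling, 0 with only the groups compared, and 0 to 2 with an array left out. In A-iPSC against ESC it was 5 with only the groups compared. In A-iPSC-ZSCAN10 against ESC it was 2 with array weights and 0 to 1 with an array left out. With an array left out, A-iPSC-ZSCAN10 against A-iPSC gave 1 to 3 and Y-iPSC against ESC 1 to 3. The ranges over left-out arrays were 5 to 7 for Y-iPSC against Y-SC, 5 to 6 for A-iPSC-ZSCAN10 against A-SC and 5 to 6 for ESC against fibroblasts, and 0 to 0 for A-SC against Y-SC and for the difference of changes. Over all probes, the count in A-iPSC against Y-iPSC was 1495, and 182 with only the groups compared; in A-iPSC-ZSCAN10 against Y-iPSC it was 198, and 0 with only the groups compared, where fewer arrays estimate the spread. The call of Tnc in A-iPSC-ZSCAN10 against A-iPSC was lost when its probes were averaged (0.83, adjusted p = 0.261). Of the 6 probes, 4 were below background on all arrays of these groups. With an array left out of a pair, the lone array is assumed to vary like the other groups. No paired analysis was possible because codes of clones and arrays link no sample of 1 group to a sample of another. With 2 arrays per pluripotent group, signal near background limits Tgfbi, Thbs1, Tnc and Ankrd1 in iPSC. The cause of these changes was not tested.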
